A study of Mus musculus with 2 samples.

Results

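The p53 pathway and the cyclin-dependent kinase (CDK) inhibitors were followed through 10 genes: Trp53, Mdm2, Cdkn1a, Cdkn1b, Cdkn2a, Cdkn2b, Sesn2, Ccng1, Bax and Bbc3. Every probe set whose platform gene symbol was exactly one of these names was taken, which gave 14 of the 45118 probe sets of the table. They named 8 of the 10 genes, and 0 probe sets used here were named Trp53 or Bax, so these genes have no value below. Usable values on both arrays existed for 13 of the 14, out of 27614 usable probe sets that name a single gene.

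The arrays were made from mouse embryonic stem (ES) cells grown without feeder cells on gelatin, in serum and leukaemia inhibitory factor. Cells labelled Control KD carried a retrovirus with a control RNA sequence, and cells labelled H2A.B KD carried one with a short-hairpin RNA (shRNA) against H2A.B, a short variant of histone H2A. The shRNA was transcribed from the U6 promoter of a vector with a neomycin resistance gene, and both cultures were held in G418 for 2 to 4 weeks, so the control shares the virus and the selection. The labels used here give no strain, sex or passage of the cells, and the H2A.B KD sample carries a number 1 whose meaning is not stated. Each condition had 1 array, so there is no replicate error and no test: a difference is the log2 intensity of the knockdown array minus that of the control array, and 2-fold (1 on this scale) was the rule of size. The genes for H2A.B itself, H2ab1, H2ab2 and H2ab3, had 0 probe sets, and the depletion was not checked on these arrays.

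p53, the product of Trp53, is a transcription factor that accumulates when DNA is damaged or growth is disturbed, and it switches on genes for arrest, repair and cell death. One of its targets, Mdm2, encodes the ubiquitin ligase that marks p53 for destruction, which closes a feedback loop. CDK inhibitors block the kinases that drive entry into S phase: the Cip/Kip proteins p21 (Cdkn1a) and p27 (Cdkn1b) bind CDK2 complexes, and the Ink4 proteins p16 (from Cdkn2a) and p15 (Cdkn2b) bind CDK4 and CDK6. Cdkn2a also encodes Arf, which restrains Mdm2. Mouse ES cells are known for a short G1 phase and low Ink4 expression.

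The promoters of 4 of these genes are shown because they are the classic p53 targets Cdkn1a, Mdm2 and Ccng1 and the gene with the largest difference, Sesn2. Each is the 250 bases before an annotated transcript start, from RefSeq on GRCm38.p6, read 5′ to 3′ on the gene's strand. A match to the p53 half-site consensus, a motif of 10 bases that reads the same on both strands, is in capitals, as is the pair of half-sites with the fewest bases between them (at most 13 bases apart and at most 1 mismatch in all). The windows lie at chr17:29090729-29090978 (plus strand) for Cdkn1a, chr11:40755287-40755536 (minus strand) for Ccng1, chr10:117710759-117711008 (minus strand) for Mdm2 and chr4:132510457-132510706 (minus strand) for Sesn2.
Cdkn1a: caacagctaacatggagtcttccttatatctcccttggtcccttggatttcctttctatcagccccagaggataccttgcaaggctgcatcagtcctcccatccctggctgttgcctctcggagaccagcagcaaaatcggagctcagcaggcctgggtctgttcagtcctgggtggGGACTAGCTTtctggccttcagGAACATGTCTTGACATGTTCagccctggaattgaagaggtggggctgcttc
Ccng1: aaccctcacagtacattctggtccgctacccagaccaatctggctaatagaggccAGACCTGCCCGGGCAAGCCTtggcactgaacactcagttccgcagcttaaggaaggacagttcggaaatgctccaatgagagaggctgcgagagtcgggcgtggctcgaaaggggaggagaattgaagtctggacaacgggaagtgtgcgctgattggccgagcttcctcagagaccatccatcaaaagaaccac
Mdm2: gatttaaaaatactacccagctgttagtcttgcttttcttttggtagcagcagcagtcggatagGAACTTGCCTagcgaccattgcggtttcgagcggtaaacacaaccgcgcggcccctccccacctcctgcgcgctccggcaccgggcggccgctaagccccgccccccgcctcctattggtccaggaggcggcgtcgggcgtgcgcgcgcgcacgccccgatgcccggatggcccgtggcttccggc
Sesn2: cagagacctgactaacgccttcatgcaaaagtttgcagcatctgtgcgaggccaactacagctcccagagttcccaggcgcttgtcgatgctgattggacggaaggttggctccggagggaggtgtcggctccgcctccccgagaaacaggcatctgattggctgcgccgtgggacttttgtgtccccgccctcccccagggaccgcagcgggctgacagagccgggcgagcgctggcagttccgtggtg

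The Cdkn1a window, upstream of the first of its 2 annotated starts, held 2 exact half-sites with 12 bases between them, a pair with no mismatch. The second of these also starts an abutting pair with 1 mismatch, from 51 to 32 bases before the start. Ccng1 held an abutting pair with 1 mismatch from 195 to 176 bases before its start, and Mdm2 held 1 exact half-site and no pair. The Sesn2 window and the other start of Cdkn1a held neither, and the letters in one window say nothing of sites elsewhere in a gene. Over all 14 windows of the 10 genes, 5 held an exact half-site, those of Trp53 and Bax among them, and 3 held a pair, those of Cdkn1a, Ccng1 and Bax. Of all 32851 promoter windows of this length, 7.13% held an exact half-site, 0.898% a pair with at most 1 mismatch, and 0.0639% a pair with none. These matches are a description of the sequence, and p53 binding was not measured here.

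None of the 13 usable probe sets differed by 2-fold between the arrays. The same rule called 4.19% of all usable probe sets. On the brightest probe set of each gene, 0 of 8 genes differed by 2-fold, against 4.04% of 16563 genes. The 13 differences ran from -0.65 to 0.38, and 12 of them were within 0.5, as were 89.0% of all probe sets. Higher values on the knockdown array were seen for 8 (61.5%) and lower values for 5, where 46.2% of all probe sets read higher. The median was 0.12, against -0.01 over all probe sets. Over the 7 that lie in the first section of the table, rows 1 to 18184, the median was 0.0138. At a 1.5-fold rule, which called 9.10% of all probe sets, 1 of the 13 qualified, a Sesn2 probe set.

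**Figure D1:**
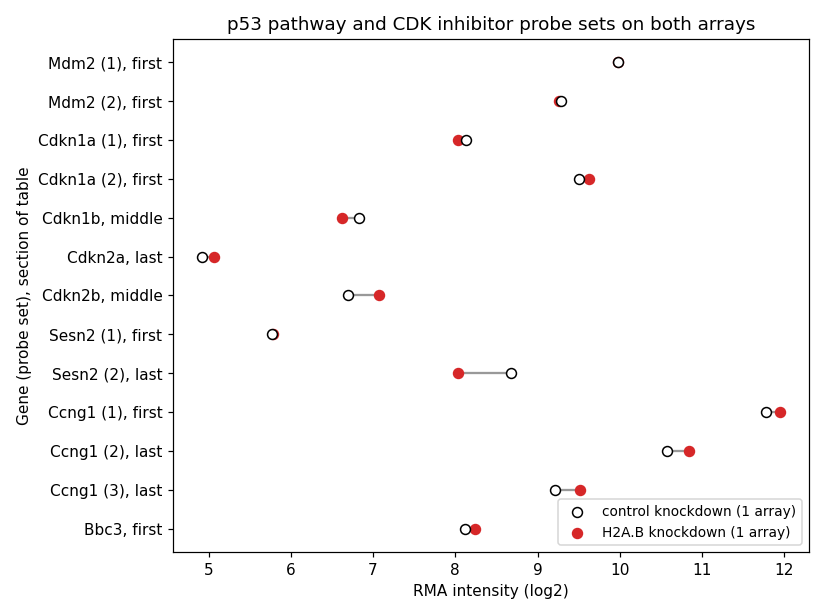
RMA intensity (log2) of the 13 usable probe sets, 1 line each; open circles are the control array and filled circles the H2A.B knockdown array, with 1 array per group and hence no error bars. Probe sets of one gene are numbered in table order and carry their section of the table; the circles lie farthest apart for Sesn2 (2), 8.68 against 8.03, and coincide for Mdm2 (1).

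The place of a probe set in the deposited table matters for reading these values. The middle section, rows 18185 to 33642, runs from the first to the last control value that repeats a value up to 20 rows above. It holds 1455 such values. By this definition the first section before it and the last section after it hold none. Differences were narrowest in the first section, with a median size of 0.04, against 0.15 in the middle one and 0.17 in the last. Where a gene had several probe sets past the expression filter in one section, the differences of the first 2 were compared across genes: Spearman's rho was 0.34 over 1034 genes of the first section, 0.02 over 277 of the middle one and 0.86 over 241 of the last. Such genes share both arrays and are not independent replicates. Of the 13 probe sets, 7 lie in the first section, 2 in the middle (Cdkn1b and Cdkn2b) and 4 in the last, and 0 of them carry a repeated control value. What sets the sections apart was not tested.

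**Figure D2:**
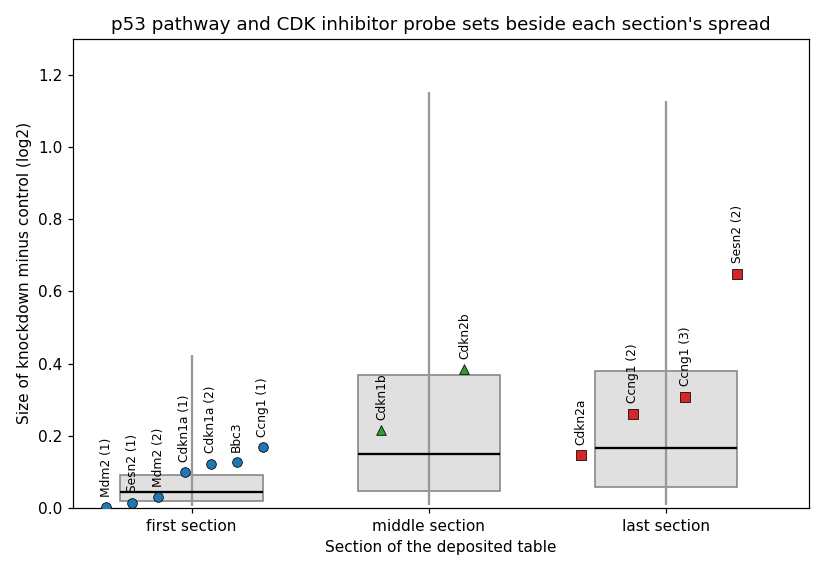
Size of the difference between the arrays (log2, sign dropped) for the 13 probe sets, by section of the deposited table. Grey boxes span the 25th to 75th percentile of all usable single-gene probe sets in that section, the bar is the median (0.04, 0.15 and 0.17) and the grey line spans the 5th to 95th percentile; all 13 points lie below the 95th percentile of their section.

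Mdm2 read nearly the same on both arrays. Its first probe set read 9.98 on both arrays, a difference of -0.0014, and its second read 9.29 on the control and 9.26 on the knockdown array, a difference of -0.03. Neither probe set separated the arrays by more than 1.02-fold.

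Among the p53 targets, Cdkn1a, the p21 gene, had probe sets that pointed in opposite directions. One read 8.13 on the control and 8.03 on the knockdown array (-0.10), and the other 9.51 and 9.63 (0.12). Their mean difference was 0.01 with an SD of 0.16 over the 2 probe sets, so no direction can be given for Cdkn1a. Over the 6826 genes with several probe sets this SD had a median of 0.06. It is a spread among probe sets of one gene on the same 2 arrays and no replicate error.

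Ccng1 encodes cyclin G1, a p53-induced protein that brings the phosphatase PP2A to Mdm2. Of the 4 genes with several usable probe sets, it was the 1 whose probe sets all read higher on the knockdown array. The first read 11.78 and 11.95 (0.17), the second 10.58 and 10.84 (0.26) and the third 9.21 and 9.52 (0.31), control value first. The mean difference was 0.25 with an SD of 0.07 over the 3 probe sets, which are annotated to the same transcript record and measured the same 2 RNA samples. In the first section 86.9% of probe sets differed by less than the first, and in the last section 63.7% and 68.6% differed by less than the second and the third. In fold size these differences were modest, at most 1.24-fold.

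Bbc3 encodes Puma, a BH3-only protein that triggers the mitochondrial path of apoptosis. Its single probe set read 8.12 on the control and 8.25 on the knockdown array, a difference of 0.13 in the first section, where 82.5% of probe sets differed by less. Its usual partner downstream, Bax, is one of the 2 genes without a probe set.

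Sesn2 encodes sestrin 2, a stress-induced protein that senses leucine and restrains mTORC1 signalling; besides p53, amino acid shortage through ATF4 is known to induce it. Its first probe set, below the expression filter of 6.73, read 5.76 on the control and 5.78 on the knockdown array (0.01). Its second read 8.68 and 8.03, lower by 1.57-fold (-0.65). Both are annotated to one transcript record, yet they differ by 0.66 from each other, with an SD of 0.47 over the 2. The second lies in the last section, where 87.2% of probe sets differed by less. The lower value of Sesn2 thus rests on 1 probe set of 2.

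**Figure D3:**
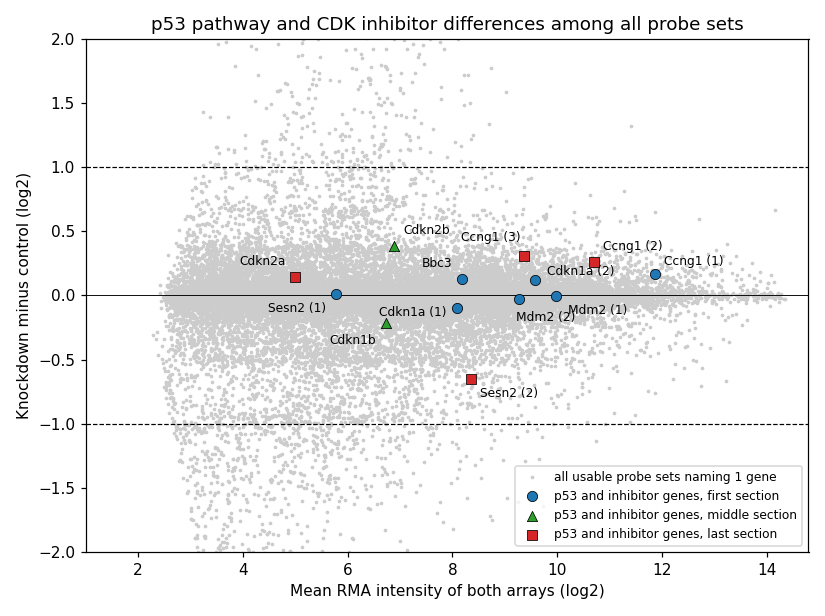
Difference, knockdown minus control (log2), against the mean intensity of both arrays (log2) for all usable single-gene probe sets (grey) and the 13 p53 pathway and CDK inhibitor probe sets (coloured by section of the table); dashed lines mark 2-fold, and 238 grey points lie beyond the plotted range of 2. The 13 points lie inside the dashed lines, with Sesn2 (2) lowest at -0.65 and Cdkn2b highest at 0.38.

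The CDK inhibitors apart from Cdkn1a were measured by single usable probe sets, near or below the expression filter. Cdkn2b, the p15 gene, read 6.69 on the control and 7.07 on the knockdown array. This difference of 0.38 (1.31-fold) was the highest of the 13, in the middle section, where 76.3% of probe sets differed by less. It passed the expression filter only through the knockdown array. Cdkn2a, its neighbour on chromosome 4, read 4.92 and 5.06 (0.15), below the expression filter on both arrays. Its probe set has an a suffix, which Affymetrix gives to sets that match several transcripts of a gene, so p16 and Arf messages cannot be told apart here.

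Cdkn1b, the p27 gene, had 2 probe sets. One has a control value of 6.60, but its deposited knockdown value of 204 belongs to a run of 616 values that rise in steps of 1 and are no log2 intensities, so it was left out. The other, in the middle section, read 6.83 and 6.62, a difference of -0.22 at a mean just below the filter. Cdkn1b and Cdkn2b are thus known here only from the middle section.

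Related genes were taken from lists written with earlier results of these arrays in view, and counted on the brightest probe set of each gene past the expression filter, where 1.96% of 8282 genes differed by 2-fold in either direction and 49.3% lay above 0. Of 34 further p53 target genes, 28 passed the filter, and 12 lay above and 16 below 0 with a median of -0.01. Of these, 1 differed by 2-fold on its brightest probe set, Apaf1, which encodes the scaffold of the apoptosome that activates caspase 9. Apaf1 read 8.92 on the control and 7.10 on the knockdown array (-1.82), and 8.27 and 7.68 (-0.59) on its other probe set. Both probe sets are from the last section and both read lower. Next in size were Pml, of the nuclear bodies, at -0.53 (-0.40 on a dim second probe set), Gadd45a, a stress gene of growth arrest, at -0.51 on its only probe set, and the damage recognition gene Ddb2 at 0.51, with -0.17 on its other probe set. On their brightest probe sets, the p53-induced genes Trp53inp1 (0.04), Aen (0.04), Perp (0.01), Pmaip1 (-0.01), Ei24 (-0.0001) and Sesn1 (0.05) were all within 0.05 of 0. Other probe sets differed by -0.08 for Trp53inp1, by 0.02 and 0.10 for Sesn1 and by -0.02 and 0.0002 for Aen. These genes were picked to show the small end of the list after their values were seen. Ppm1d and Tigar, also named after their values were seen, had discordant probe sets in the middle section. Ppm1d differed by 0.04 on its brightest and by 1.26 on its other, from 6.49, below the filter, to 7.75. Tigar differed by 0.09 on its brightest and by -0.26 and -0.95 on dimmer ones.

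Of 22 regulators and relatives of p53, 17 passed the filter, 9 above and 8 below 0, with a median of 0.01. The 1 that differed by 2-fold was Trp63, which encodes the p53 relative p63, a factor of stratified epithelia. It read 7.69 on the control and 6.12 on the knockdown array (-1.57, 2.96-fold lower), so its mean passed the filter only through the control array, and its count as a 2-fold gene is no support. Its other probe sets, which lie below the filter, differed by -0.68, -1.44 and -1.33. Of the 4, all lower on the knockdown array, 3 lie in the last section (-1.57, -1.44 and -1.33), where probe sets of one gene tended to differ alike, and 1 in the first (-0.68). The ubiquitin protease gene Usp10, whose product stabilises p53, read 11.34 and 10.62 (-0.72) on its only probe set, in the middle section. Hipk2, a kinase that phosphorylates p53, differed by 0.43 on its brightest probe set but by -2.29 to 0.15 on its other 7. On its brightest probe set, the inhibitory partner of Mdm2, Mdm4, differed by 0.04. On theirs, the damage kinase genes Atm, Atr, Chek1 and Chek2 differed by 0.01, 0.05, -0.11 and -0.0043. Further probe sets differed by 0.04 and -0.11 for Mdm4, by 0.06 for Atm and by 0.01 and -0.12 for Atr. Those of Chek1 differed by -0.19 and -0.22.

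Genes around the CDK inhibitors were counted in 3 lists. Of 7 genes for other inhibitors and for the ligase that degrades p27, 5 passed the filter, 3 above and 2 below 0, none of them by 2-fold (median 0.01). Skp2, the F-box subunit of that ligase, differed by 0.10 on its brightest probe set, and by 0.69 and 0.47 on the others. The 0.69 went from 6.57, below the filter, to 7.27. The 0.47 went from 3.01 to 3.49, far below the filter on both arrays. Cdkn3 differed by -0.05, the Ink4 gene Cdkn2d by -0.05 and the Cip/Kip gene Cdkn1c by 0.01. Of 12 cyclin, kinase and pocket protein genes under the inhibitors, 11 passed, 8 above and 3 below 0 and none by 2-fold (median 0.02). The largest were Cdk6 at -0.27 (-0.17 and -0.13 on its others) and Ccne1 at 0.20. Next came Ccnd3 at 0.11 (-0.11 on a dim probe set) and Ccnd1 at -0.06 (-0.02 and 0.04 on its others). Of 10 regulators of the Cdkn2a locus, 7 passed, 5 above and 2 below 0 and none by 2-fold (median 0.06). The largest were the repressor genes Tbx3 (-0.37, but -0.15 and 0.10 on dimmer probe sets) and Kdm2b (0.19), Ets2 (0.14) and Id1 (-0.08). Zbtb7a, which encodes a repressor of Arf and did not pass the filter, differed by -0.86 and -0.85 on its probe sets in the last section and by 0.38 on one in the middle section; it is named after its values were seen.

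The Bcl2 family and apoptosome list had 12 of 17 genes past the filter, 8 above and 4 below 0. None differed by 2-fold on the brightest probe set (median 0.05). Bmf, a BH3-only relative of Puma, was the largest at 0.75, from 6.40 to 7.15, so it passed the filter only through the knockdown array. Its other probe set in the last section differed by 0.73, like the brightest, but read only 2.93 and 3.66. Its probe set in the first section differed by -0.27. This one went from 6.55, above the 6.40 of the brightest on the control array, to 6.29. Casp9, the caspase that the Apaf1 scaffold activates, differed by -0.24 and -0.23 on its 2 probe sets. Cycs, the cytochrome c gene, differed by -0.22 on one and by 0.16 and 0.13 on the others, and the pore-forming Bak1 by 0.10 and 0.08. Bcl2l11, named after its values were seen, differed by 0.09 on its brightest probe set. In the middle section it differed by 2.00, from 7.11 to 9.10, and by 0.32 on another probe set. Its remaining probe sets differed by -0.94 in the first section and by -0.13 in the last.

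**Figure D4:**
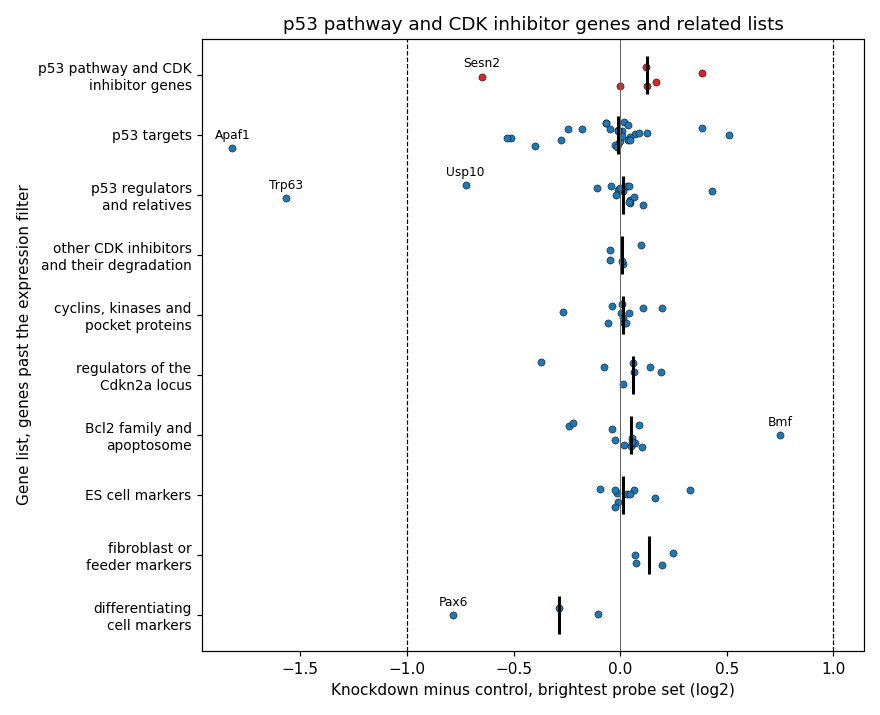
Difference, knockdown minus control (log2, brightest probe set), for genes past the expression filter: 6 p53 pathway and CDK inhibitor genes (red) and 9 related or marker lists (blue), 1 point a gene from 1 array per group, with vertical position spread for legibility. Black bars are list medians and dashed lines mark 2-fold, beyond which lie Apaf1 (-1.82) and Trp63 (-1.57).

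Marker genes describe the cells on both arrays. All 10 measured ES cell markers passed the filter, from 10.14 to 14.24 on the control array and from 10.12 to 14.22 on the knockdown array, with a median difference of 0.01; the largest differences were those of Esrrb (0.33), Klf4 (0.16), Nanog (-0.09) and Utf1 (0.06). Of 12 fibroblast or feeder markers, 4 passed, all above 0: Col1a1 (0.25), Acta2 (0.19), Col3a1 (0.07) and Thy1 (0.07). Thy1, from 6.71 to 6.78, passed the filter only through the knockdown array. The summed linear intensity of the 12 was 1210 on the control and 1346 on the knockdown array. Over all 12, 10 lay above and 2 below 0, from -0.09 (Lum) to 0.57 (Twist2), and both of these were below the filter. Of 11 measured markers of differentiating cells, 3 passed and all were below 0: Pax6 (-0.78, but 0, 0.03 and -0.03 on dimmer probe sets), Krt18 (-0.29) and Eomes (-0.11). Over all 11, 3 lay above and 8 below 0, from -0.78 (Pax6) to 0.33 (Nes, below the filter). The summed linear intensity of the 11 was 1482 on the control and 1094 on the knockdown array, and 672 and 623 without Pax6. The part of these shifts in the values of Cdkn2b or Ccng1 was not tested, and in bulk RNA fewer cells of a type and less RNA per cell cannot be told apart.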

How the data were processed

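RNA of 1 Control KD and 1 H2A.B KD culture of mouse ES cells (2 µg total RNA each, per the labels' protocols) was hybridised to Affymetrix arrays. The submitters' processing notes name RMA for the values the authors deposited; its version and settings are not given in the sources used here. Their scale is not stated and was taken as log2 from the range of the deposited control values.

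Left out were 616 knockdown values of the step series (rows 2054 to 4710), 2 others above 20, and 1455 control values repeated from up to 20 rows above. Symbols came from the platform annotation: 28898 probe sets named 1 gene, 551 several and 15669 none. A gene took its probe set of highest mean. The expression filter was the median over genes (6.73). Differences were not centred. A single array per group allows no test and sets the limit of precision.

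The genes and lists were chosen with earlier results of these data known. Named were all 10 genes and, per related list, the 4 largest differences past the filter. Trp53inp1, Aen, Perp, Pmaip1, Ei24, Sesn1, Ppm1d, Tigar, Mdm4, Atm, Atr, Chek2, Zbtb7a, Bcl2l11, Lum, Twist2 and Nes were added after their values were seen. The steps were tested on simulated arrays. Python 3.11.15, pandas 2.3.3, numpy 2.4.6, statsmodels 0.14.6 (lowess) and matplotlib 3.10.9 were used.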

Additional observations from a re-analysis of the deposited data

How the results depend on the processing

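Across 7 alternatives listed in advance and 3 added after seeing the data (without the middle section, the first section alone, and both values of each repeated pair left out), the counts of probe sets and of genes differing by 2-fold stayed at 0, except that a 1.5-fold rule gave 1 probe set and 1 gene, Sesn2 in both. The median over probe sets was 0.12 and fell to 0.0138 in the first section alone; otherwise it kept within 0.06 of that value, the median SD among probe sets of one gene. The median over genes went from 0.12 to 0.07 with the median over the probe sets of a gene, 1 of its alternatives. Of 64 values of single genes under the alternatives, 59 moved by less than that SD and 2 had another sign. Most alternatives could not change the probe set that stood for a gene, so the 59 say little. The moves beyond that SD came where another probe set or the median over probe sets was used. Sesn2 was at -0.32 with the median over its probe sets and at 0.01 in the first section alone, Cdkn1a at 0.01 with the median and Ccng1 at 0.26 with the median or without suffixed probe sets. Keeping the repeated control values changed no value of these genes. No paired analysis was possible because each group has 1 array, and for the same reason no replicate could be left out. Signal over background is unknown here, so small differences at low intensity, as for Cdkn2a, are the least certain.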
